A study of Mus musculus with 6 samples.

Results

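The genes described here are 8 regulators chosen by symbol, of 48795 genes in a count table from mouse quadriceps. They are the estrogen receptor gene Esr1, the estrogen-related receptor genes Esrra, Esrrb and Esrrg, the membrane estrogen receptor gene Gper1, the corticosteroid receptor genes Nr3c1 and Nr3c2, and the co-regulator gene Cited2. Each symbol matched 1 Ensembl identifier, and all 8 passed the filter on low counts. The knockout (MERKO) animals were male C57BL/6 mice aged 20 weeks in which estrogen receptor alpha was deleted in muscle only, with 3 libraries. The control animals were male wild-type C57BL/6 mice of the same age, also with 3 libraries. The promoter that drives the deletion, the part of Esr1 that is removed and whether a library comes from 1 animal are not given here, so p-values measure only the spread between these libraries.

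Steroid receptors sit in the cytoplasm or nucleus, bind a hormone and then regulate genes at DNA elements made of paired half-sites. The estrogen-related receptors resemble ERα in their DNA-binding part but have no known natural steroid ligand. In muscle they act with the PGC-1 co-activators on genes of mitochondria, and ERRγ is known for its abundance in oxidative fibres. The glucocorticoid receptor, encoded by Nr3c1, drives the genes of muscle protein breakdown during stress and fasting.

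Library totals lay between 14935532 and 44282448 counts. Levels are in CPM, each count divided by its library's total after TMM factors that correct for libraries in which a few genes take a large share of the counts. Such a share was taken by 1 rRNA gene model, at 6.19% to 32.4% of counts in MERKO and 0.0433% to 27.7% in control. The defining myofibre genes Acta1, Ckm, Ttn, Mylpf and Tnnt3 summed to 123550 to 210420 CPM in MERKO libraries and 121680 to 162250 CPM in controls, so the labelled tissue's markers were abundant.

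Sequences before RefSeq starts of the estrogen-related receptor genes are shown because transcripts of these genes varied together from library to library, as described below. Each is the 250 bases before the RefSeq start nearest to the gene's beginning, taken from RefSeq on build GRCm38.p6 and read 5′ to 3′ on the gene's own strand. The Esrra window is chr19:6921809-6922058 on the minus strand, the Esrrb window chr12:86360867-86361116 on the plus strand and the Esrrg window chr1:187608756-187609005 on the plus strand. Most of the Esrrg window lies inside the annotated gene, which begins at 187608791, because the RefSeq start used is further in. Capitals mark the single motif match, which is in that inner part.
Esrra: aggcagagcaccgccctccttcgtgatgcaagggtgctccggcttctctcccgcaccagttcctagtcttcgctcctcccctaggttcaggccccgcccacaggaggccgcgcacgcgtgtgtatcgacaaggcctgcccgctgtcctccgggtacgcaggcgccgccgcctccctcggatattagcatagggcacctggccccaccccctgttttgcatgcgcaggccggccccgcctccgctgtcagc
Esrrb: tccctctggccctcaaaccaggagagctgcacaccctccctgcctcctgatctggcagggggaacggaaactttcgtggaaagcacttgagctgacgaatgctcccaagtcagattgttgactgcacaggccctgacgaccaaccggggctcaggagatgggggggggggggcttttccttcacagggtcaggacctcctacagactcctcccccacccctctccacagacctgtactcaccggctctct
Esrrg: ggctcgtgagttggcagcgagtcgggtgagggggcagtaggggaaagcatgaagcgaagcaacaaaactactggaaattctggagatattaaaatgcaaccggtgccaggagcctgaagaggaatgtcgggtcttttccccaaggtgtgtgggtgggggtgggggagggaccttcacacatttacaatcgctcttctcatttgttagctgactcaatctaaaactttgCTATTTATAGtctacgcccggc
In the 12 such windows of 7 of these genes, 4 motifs were searched on both strands. The estrogen-related receptor element TNAAGGTCA, the estrogen response element (GGTCA and TGACC with 3 bases between) and a short core of the glucocorticoid response element, ACANNNTGT, had no match in these letters. They were present in 1.14%, 0.0639% and 5.84% of all 32851 windows of the same length. The consensus of MEF2, a family of muscle transcription factors, matched once as CTATTTATAG, beginning 22 bases before the Esrrg start. That consensus was present in 2.92% of all windows. A match is a description of the letters and not a site of binding.

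Esr1 transcripts were at 25.9% of the control level in MERKO muscle (95% interval 19.9% to 33.7%), and Esr1 was the single gene of the 8, and of all genes tested, that passed the threshold of an adjusted p under 0.05 (called). Esr1 encodes ERα, the estrogen receptor that the MERKO design targets, and lies on chromosome 10 between 4611593 and 5005614 on the plus strand of GRCm38 (ENSMUSG00000019768.16). In CPM, Esr1 stood at 6.75, 9.43 and 7.46 in MERKO 1 to 3, against 25.1, 34.1 and 31.1 in control 1 to 3. The groups did not overlap, and the highest MERKO library was well below the lowest control library. Set against the control mean, the MERKO libraries retained 22.4%, 31.3% and 24.8%, so the remaining reads were present at a similar level in each. The fitted log2 fold change was -1.95 (SE 0.16, adjusted p = 0.0262, edgeR quasi-likelihood test over 13628 genes). In the same test 0.00734% of genes passed, which is Esr1 alone. The adjusted p was above 0.05 without MERKO 1 (0.102), MERKO 2 (0.0576), control 2 (0.109) or control 3 (0.0632), and the log2 fold changes of these refits lay from -2.08 to -1.84.

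Markers of other cells are given beside Esr1, and their part in its level was not tested. Of all genes, 3.34% were lower and 3.71% higher in MERKO at an unadjusted p under 0.05 (edgeR). All 7 adipocyte genes had lower values in MERKO, 6 with an unadjusted p under 0.05 and 0 called, and their summed level was 112 to 144 CPM in MERKO and 145 to 476 CPM in control. By library, the adipocyte sum was 130, 112 and 144 CPM in MERKO 1 to 3, where Esr1 stood at 6.75, 9.43 and 7.46 CPM. It was 145, 476 and 222 CPM in control 1 to 3, where Esr1 stood at 25.1, 34.1 and 31.1 CPM. Of the 6 tendon genes 5 had higher values, 4 with an unadjusted p under 0.05 and 0 called, with summed levels of 80.5 to 385 CPM in MERKO and 29.5 to 81.5 CPM in control. The endothelial genes stood at 134 to 194 CPM in MERKO and 131 to 183 CPM in control, and markers of fibro-adipogenic progenitors at 455 to 723 and 442 to 685 CPM. All 5 Schwann cell genes had higher values, 1 with an unadjusted p under 0.05, with summed levels of 18.6 to 29.8 CPM in MERKO and 11.2 to 19.3 CPM in control. All 4 smooth muscle genes had higher values too, with sums of 48.4 to 77.3 and 36.1 to 67.6 CPM. No marker of these lists was at 0 in any library. In whole muscle, fewer cells of a type and less RNA per cell cannot be told apart.

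**Figure D1:**
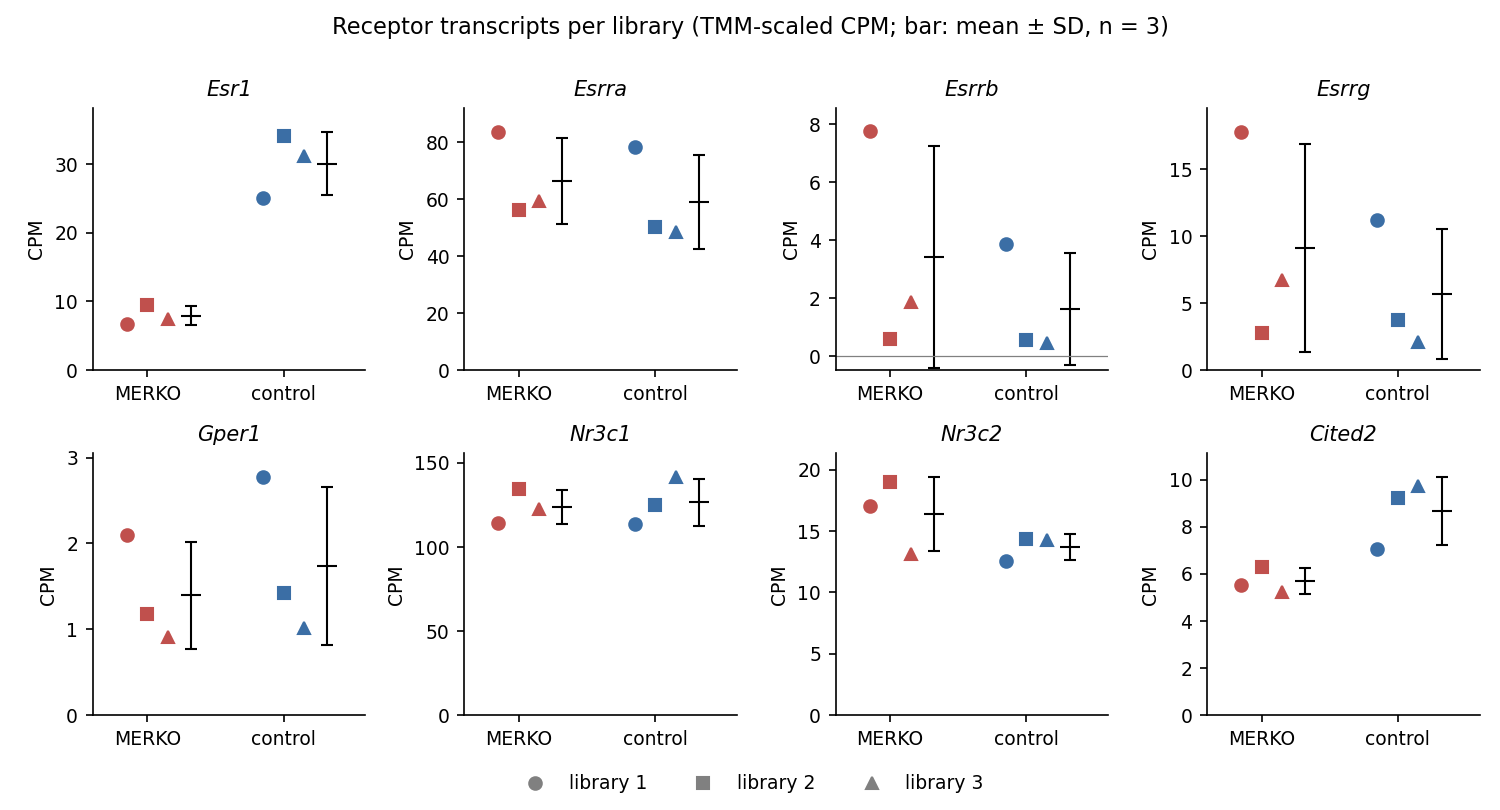
CPM of the 8 genes in each library, MERKO in red and control in blue, with symbols for libraries 1 to 3 and bars for mean ± SD (n = 3). Esr1 and Cited2 are separate between groups, while Esrra, Esrrb and Esrrg are highest in MERKO 1 and control 1.

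The other receptors that respond to estrogen were scarce. Gper1, a G-protein-coupled receptor on chromosome 5 (139423151 to 139427800, plus strand), stood at 2.10, 1.18 and 0.914 CPM in MERKO 1 to 3, against 2.77, 1.42 and 1.01 CPM in control 1 to 3. The groups overlapped, with library 1 the highest in each. Its counts ran from 14 to 69 in MERKO and from 18 to 66 in control, so a level such as the 1.18 CPM of MERKO 2 has a 95% exact Poisson interval of 0.644 to 1.98 CPM, for counting error only. The log2 fold change was -0.25 (95% interval -1.31 to 0.81, adjusted p = 0.916, edgeR). Its sign changed without control 1 (0.30) and with limma-voom (0.03). Esr2, the ERβ gene, had 1, 4 and 4 counts in MERKO and 5, 4 and 5 in control and was below the filter. The progesterone receptor gene Pgr, a classical estrogen target in reproductive tissue, had 1 count in MERKO 1 and 0 in the other libraries.

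The estrogen-related receptor genes Esrrb and Esrrg varied several-fold between libraries of 1 genotype. Esrrg, on chromosome 1 (187608791 to 188214885, plus strand), stood at 17.8, 2.78 and 6.74 CPM in MERKO 1 to 3, against 11.2, 3.71 and 2.06 CPM in control 1 to 3. Both groups held 1 library far above their others. The ranges overlapped in part, with MERKO 1 above every control library and control 3 below every MERKO library. The highest library exceeded the lowest 6.40-fold within MERKO and 5.43-fold within control. For Esrrg the log2 fold change was 0.76 (95% interval -0.91 to 2.42, adjusted p = 0.835, edgeR). It was -0.19 without MERKO 1 and 1.81 without control 1, so its direction and size depended on library 1 of each group.

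Esrrb, whose product is best known from mouse embryonic stem cells and placenta, had the same profile at lower abundance. Located at 86361117 to 86521628 on the plus strand of chromosome 12, it stood at 7.78, 0.589 and 1.88 CPM in MERKO 1 to 3, against 3.86, 0.552 and 0.46 CPM in control 1 to 3. The low libraries rest on few reads: MERKO 2 and control 2 had 7 counts each, with 95% exact Poisson intervals of 0.237 to 1.21 and 0.222 to 1.14 CPM. MERKO 1 was 13.2 times the lowest MERKO library, and control 1 was 8.41 times the lowest control library. Between genotypes the log2 fold change was 1.18 (95% interval -1.04 to 3.39, adjusted p = 0.803, edgeR), with -0.31 without MERKO 1 and 2.90 without control 1.

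Esrra, the most abundant of the 3 and a driver of genes of oxidative metabolism, followed the same libraries with a smaller amplitude. It lies on chromosome 19 (6910977 to 6921813, minus strand) and stood at 83.6, 56.1 and 59.2 CPM in MERKO 1 to 3, against 78.3, 50.4 and 48.5 CPM in control 1 to 3. The lowest MERKO library was below the highest control library, and the library numbered 1 was again on top in each group. The log2 fold change was 0.17 (95% interval -0.33 to 0.67, adjusted p = 0.872, edgeR), with -0.03 without MERKO 1 and 0.43 without control 1. Per kilobase of exon, Esrrg reached 0.15, 0.035 and 0.0804 of the Esrra level in MERKO 1 to 3, against 0.101, 0.052 and 0.03 in control 1 to 3. The log2 ratio of Esrrg to Esrra differed by 0.48 between group means (-3.74 ± 1.06 in MERKO and -4.21 ± 0.88 in control, SD, n = 3 each). This is less than the spread within groups (exact two-sided permutation p = 0.6, adjusted p = 0.6 over 2 ratios, where 0.1 is the smallest possible).

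MERKO 1 and control 1 also held most slow-fibre transcripts, and the part of this in the receptor levels was not tested. The 8 slow-fibre genes, among them the slow myosin gene Myh7, were all tested, with 3 higher and 5 lower in MERKO and 0 called. Their summed level was 542, 44.3 and 54.0 CPM in MERKO 1 to 3, against 563, 56.4 and 54.9 CPM in control 1 to 3. No slow-fibre gene was at 0 in a library. MERKO 3 exceeded MERKO 2, control 2 and control 3 in both Esrrb and Esrrg. Its summed slow-fibre level was above that of MERKO 2 and slightly below those of control 2 and control 3. Single slow-fibre genes differed in this. Myl3 and Atp2a2 were higher in MERKO 3 than in control 2 and control 3, and Casq2 lay between them. Myh7, Myl2, Tnnc1, Tnni1 and Tnnt1 were lower in MERKO 3 than in both. Without MERKO 1 and control 1 together, the log2 fold changes were 1.41 for Esrrb, 0.87 for Esrrg and 0.23 for Esrra. The adjusted p-values were 0.625, 0.706 and 0.673 (edgeR). With all libraries the log2 fold changes were 1.18, 0.76 and 0.17.

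**Figure D2:**
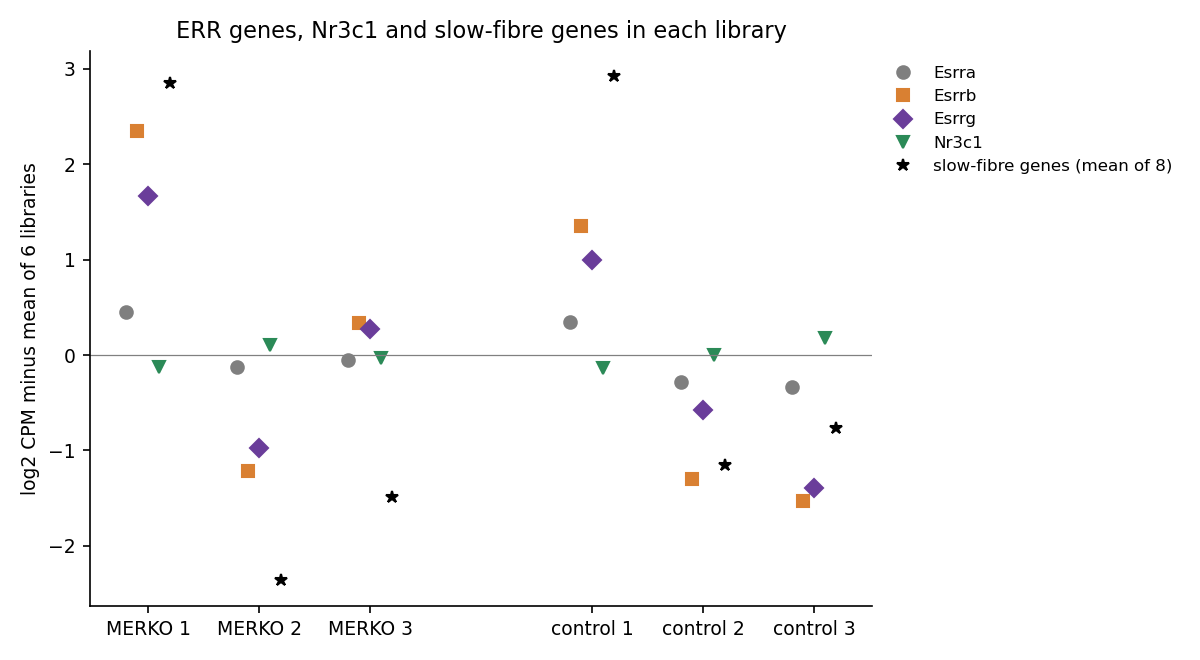
Difference of log2 CPM from the mean of the 6 libraries (vertical axis) for Esrra, Esrrb, Esrrg, Nr3c1 and the mean of 8 slow-fibre genes, by library. Esrrb and Esrrg lie at 2.35 and 1.67 in MERKO 1 and at 1.35 and 1.00 in control 1, while Nr3c1 stays between -0.13 and 0.18.

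The genes whose profiles over the 6 libraries were most like these receptors were found by Pearson's r of log2 CPM among 8827 or 8828 genes of at least 2 log2 CPM. For Esrrg they were Perm1 (r = 0.999, Spearman's rho = 1), the myoglobin gene Mb (0.997, rho = 1) and Nceh1 (0.996, rho = 1). With MERKO 1 and control 1 left out, r was 0.999, 0.9999 and 0.982 over 4 libraries. For Esrrb they were Plpbp (0.998), Lynx1 (0.997) and Smtnl1 (0.996), and for Esrra Homer2 (0.995), the cytochrome c1 gene Cyc1 (0.993) and Hdhd2 (0.992). An r above 0.95 was reached by 2.46% of genes for Esrrg, 2.65% for Esrrb and 2.54% for Esrra, against 0.295% for Esr1, 0.363% for Nr3c1 and 0.193% for Nr3c2. For Esr1 the nearest were Dars (0.991), Map2k4 (0.988) and Slc43a1 (0.986). For Gper1 they were Zdhhc1 (0.992), Mrps35 (0.984) and Churc1 (0.977), for Nr3c1 Zfp217 (0.994), Tppp (0.982) and Ppp3r1 (0.981), for Nr3c2 Sema6c (0.997), Tollip (0.996) and Lingo3 (0.981), and for Cited2 Hist1h4d (0.993), March2 (0.987) and Slc25a44 (0.984). Without MERKO 1 and control 1, r was 0.949 for Hdhd2 with Esrra and 0.798 for Churc1 with Gper1, and it stayed above 0.95 for the other genes named. These genes are the extremes of a search over 6 libraries and are given with no p.

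By group mean, Nr3c1 was the most abundant of the 8 genes per kilobase, though below Esrra in MERKO 1 and control 1. Nr3c1 varied little between libraries. It encodes the glucocorticoid receptor (ENSMUSG00000024431.14) and stood at 114.2, 134 and 123 CPM in MERKO 1 to 3, against 113.8, 125 and 142 CPM in control 1 to 3. The ranges overlapped throughout, with an SD of 8.22% of the mean in MERKO and 11% in control. The log2 fold change was -0.04 (SE 0.11, 95% interval -0.30 to 0.23, adjusted p = 0.956, edgeR). The interval corresponds to 81.2% to 117% of the control level. Its sign changed with the library left out, at 0.02 without MERKO 1 and 0.05 without control 3.

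Nr3c2 encodes the mineralocorticoid receptor, which binds aldosterone and also glucocorticoids, and lies on chromosome 8 (76899442 to 77245012, plus strand). It stood at 17.0, 19.0 and 13.1 CPM in MERKO 1 to 3, against 12.5, 14.4 and 14.3 CPM in control 1 to 3. MERKO 1 and 2 were above every control library and MERKO 3 was within the control range. The log2 fold change was 0.25 (SE 0.15, 95% interval -0.09 to 0.59, adjusted p = 0.72, edgeR), and it was 0.39 without MERKO 3 and 0.14 without MERKO 2. Per kilobase, Nr3c2 reached 0.177, 0.168 and 0.127 of the Nr3c1 level in MERKO 1 to 3, against 0.131, 0.136 and 0.12 in control 1 to 3. The log2 ratio averaged -2.69 ± 0.26 in MERKO and -2.96 ± 0.10 in control (SD, n = 3 each), a difference of 0.27 that the 3 against 3 libraries did not separate (exact two-sided permutation p = 0.3, adjusted p = 0.6). It was 0.18 without MERKO 1 and 0.42 without MERKO 3.

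Cited2 was the other gene of the 8 whose groups did not overlap. Its product binds the co-activators CBP and p300, and thereby competes with hypoxia-inducible factor 1. Cited2 lies on chromosome 10 (17723218 to 17725674, plus strand) and stood at 5.53, 6.31 and 5.25 CPM in MERKO 1 to 3, against 7.06, 9.23 and 9.76 CPM in control 1 to 3. Every MERKO library was below every control library. Its log2 fold change was -0.62 (SE 0.16, 95% interval -0.99 to -0.25), with an unadjusted p of 0.00472 and an adjusted p of 0.654 (edgeR), so it did not pass. It lay between -0.75 and -0.51 in the 16 alternative settings. The adjusted p was 0.109 at its lowest, with no filter on low counts, and 0.344 with DESeq2.

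Against all genes, 2 of the 8 had an unadjusted p under 0.05, both lower in MERKO, where 7.04% of all genes did (3.71% higher and 3.34% lower). These were Esr1, which the genotype targets, and Cited2. The same 2 genes were those whose groups did not overlap, against 13.3% of all genes (6.17% higher and 7.1% lower). The 8 genes were chosen with earlier results of these data known, so neither share is a test of the set. With DESeq2, which called 0.165% of 13922 genes, Esr1 was again the single gene called among the 8. Of the 8 genes 4 had higher and 4 had lower values, with a median log2 fold change of 0.07 against 0.01 over all genes. The number with higher values was 2 without MERKO 1. Without control 1, an unadjusted p under 0.05 was found for 5 of the 8, 3 of them higher (Esrra, Esrrb and Esrrg), against 7.94% of all genes. Without MERKO 3 it was found for 3 of the 8, with Nr3c2 added, against 7.06% of all genes. Without MERKO 1 and control 1 together it was again 3 of the 8, with Esrrb added, against 7.6%.

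**Figure D3:**
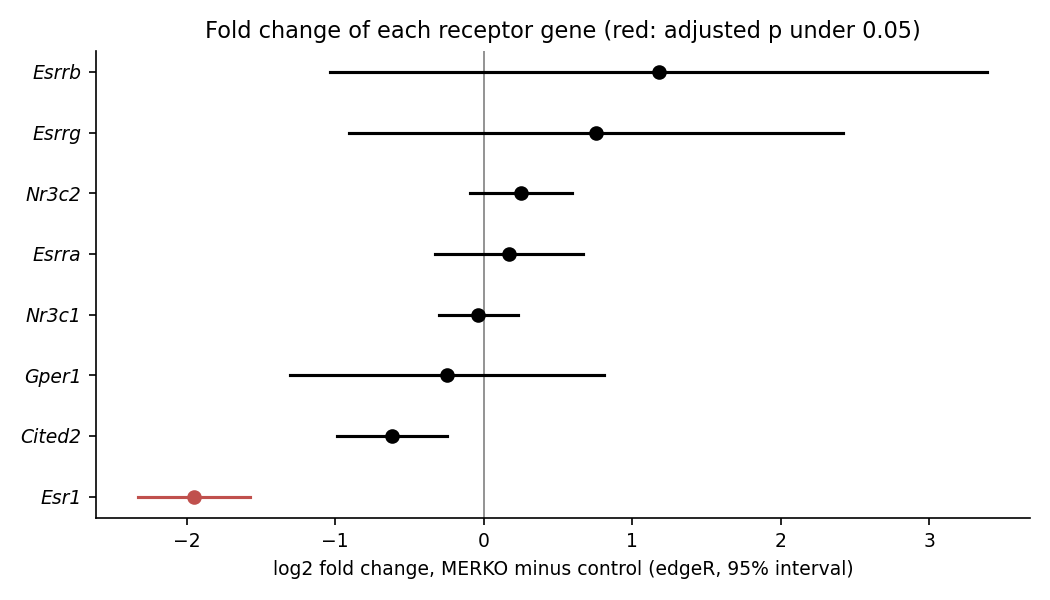
Log2 fold change (MERKO minus control) of each of the 8 genes with its 95% interval from the edgeR fit, in red where the adjusted p was under 0.05. The Esr1 interval runs from -2.33 to -1.57, and those of Esrrb and Esrrg are the widest of the 8.

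Levels of different genes can be compared per kilobase of exon. In MERKO the order was Nr3c1 (16.1 ± 1.32), Esrra (15.1 ± 3.43), Nr3c2 (2.53 ± 0.47), Cited2 (2.32 ± 0.22), Esrrg (1.47 ± 1.25), Esr1 (0.577 ± 0.102), Esrrb (0.565 ± 0.634) and Gper1 (0.551 ± 0.245 CPM per kilobase, SD, n = 3). In control it was Nr3c1 (16.5 ± 1.82), Esrra (13.5 ± 3.80), Cited2 (3.53 ± 0.58), Esr1 (2.20 ± 0.34), Nr3c2 (2.12 ± 0.16), Esrrg (0.91 ± 0.78), Gper1 (0.684 ± 0.363) and Esrrb (0.269 ± 0.321 CPM per kilobase). In MERKO, Esrra and Nr3c2 were the only neighbours in this order whose libraries did not overlap. In control, Esrra was separate from Cited2, Cited2 from Esr1 and Nr3c2 from Esrrg, and the other neighbours overlapped. Lengths are the union of all annotated exons, 13661 bases for Esr1 and 2457 for Cited2, so genes with long alternative exons are understated.

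Of the 48 nuclear receptor genes looked up, 34 passed the filter. By level per kilobase Nr3c1 ranked 6 and Esrra 7 in both groups. Genes above them included Rxra (26.7 ± 2.65 in MERKO and 29.4 ± 1.46 in control), Nr1d2 (26.7 ± 1.43 and 26.6 ± 0.40), Rxrg (17.2 ± 3.14 and 21.8 ± 2.10) and Nr4a1 (18.3 ± 2.91 and 17.6 ± 0.97 CPM per kilobase). These encode retinoid X receptors, a circadian repressor and an orphan receptor of the early response to activity. Esr1 ranked 29 in MERKO and 19 in control. Of the 34 tested, 16 had higher and 18 lower values, with a median log2 fold change of -0.01.

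**Figure D4:**
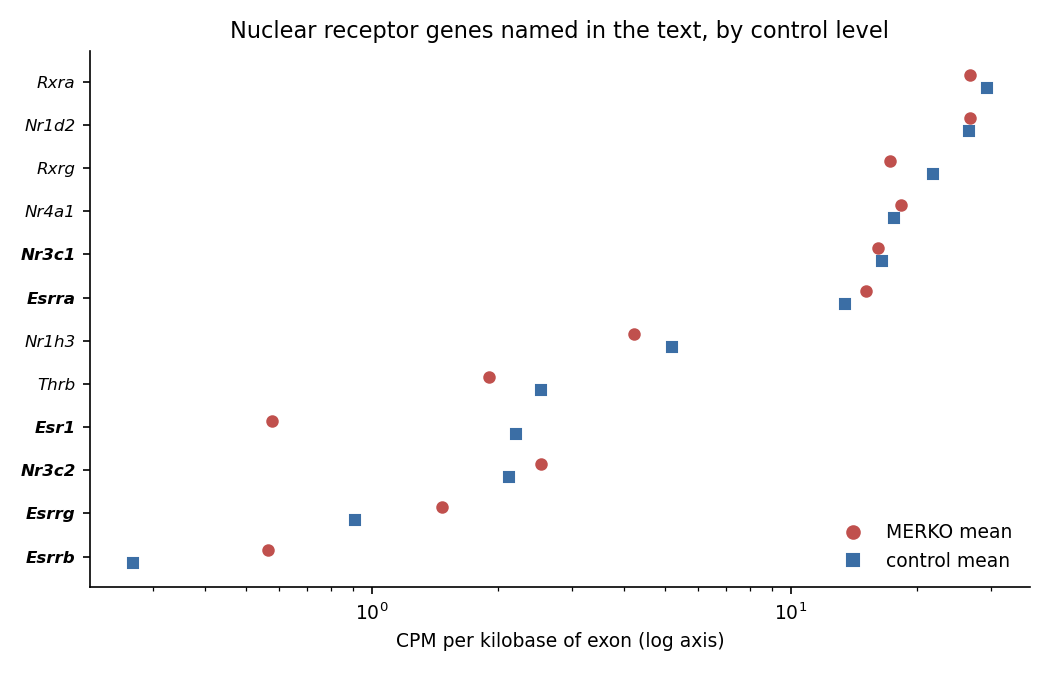
Mean CPM per kilobase of exon (log axis) of the nuclear receptor genes named in the text, in MERKO (red circles) and control (blue squares), ordered by the control level, with the receptors of the 8 genes in bold. Esr1 is at 0.577 in MERKO and 2.20 in control, the widest gap of the genes shown.

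Genes around the receptors were then counted, from lists written with earlier results of these data known, and no gene of these lists other than Esr1 passed over all genes. Over all genes tested, 7094 had higher and 6534 lower values in MERKO. Of 17 tested reported ERα targets, 9 had higher and 8 lower values (median log2 fold change 0.01). Those with the lowest p were Ccnd1, the cell-cycle regulator cyclin D1, at 6.43 ± 0.99 CPM in MERKO libraries and 3.65 ± 0.89 CPM in controls (log2 fold change 0.81), the receptor kinase gene Ret at 4.67 ± 1.17 and 2.72 ± 0.41 CPM (0.73), and the chemokine gene Cxcl12 at 41.7 ± 5.31 and 34.8 ± 6.26 CPM (0.27). The groups did not overlap in Ccnd1 or Ret, which make up 11.8% of the tested targets, against 13.3% of all genes. Their adjusted p-values were 0.654 for Ccnd1, 0.668 for Ret and 0.715 for Cxcl12 (edgeR).

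Of 20 reported targets of the estrogen-related receptors, 15 had higher and 5 lower values (median 0.10), and 0 had an unadjusted p under 0.05. Those with the lowest p were the complex I gene Ndufb5 (145 ± 38.6 CPM in MERKO libraries and 179 ± 38.8 CPM in controls), the carnitine palmitoyltransferase gene Cpt1b (1.55 ± 0.43 and 1.14 ± 0.61 CPM) and Etfdh, which passes electrons from fat oxidation to the respiratory chain (129 ± 53.2 and 101 ± 44.3 CPM). Etfdh stood at 189, 86.0 and 113 CPM in MERKO 1 to 3, against 152, 79.0 and 71.9 CPM in control 1 to 3, highest in the libraries where Esrrg was highest. The number of these targets with higher values was 2 of 20 without MERKO 1, 8 without control 3, 10 without control 2, 19 without MERKO 2 or control 1, and 17 without MERKO 1 and control 1 together. Their median was -0.14 without MERKO 1, -0.02 without control 3 and 0.31 without control 1. Among 17 tested co-activators and co-repressors 12 had higher values (median 0.10). Those with the lowest p were Cited4, a relative of Cited2, at 12.1 ± 5.98 and 6.43 ± 0.93 CPM, and the steroid receptor co-activators Ncoa2 at 25.1 ± 1.84 and 20.9 ± 1.39 CPM and Ncoa3 at 26.4 ± 3.79 and 22.1 ± 1.51 CPM, with adjusted p-values of 0.683, 0.683 and 0.713 (edgeR). With library totals alone as the scale, which lowers the median of all genes by more than 0.1 to -0.10, 8 of the 17 co-regulators and 11 of the 20 targets had higher values.

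Reported targets of the glucocorticoid receptor had mostly lower values in MERKO, where Nr3c1 itself had a log2 fold change of -0.04. Of 27 tested, 2 had higher and 25 lower values, where 7094 of all genes were higher and 6534 lower. The median log2 fold change was -0.16 against 0.01 over all genes. The median was -0.08 without control 3, -0.09 without MERKO 2, -0.27 without MERKO 1 and -0.29 without control 2. An unadjusted p under 0.05 was found for 5 of 27, all lower, where 3.34% of all genes were lower at that p, and 0 passed over all genes. The list was written with earlier results of these data known, so neither this share nor the split of signs is a test of the set. The groups did not overlap in 14.8% of these targets, against 13.3% of all genes. Fkbp5, a co-chaperone that restrains the receptor, stood at 67.9, 41.8 and 56.4 CPM in MERKO 1 to 3, against 112, 96.9 and 105 CPM in control 1 to 3. Sgk1, a kinase of salt and stress responses, stood at 248, 272 and 272 CPM, against 368, 301 and 360 CPM. Neither gene overlapped between groups, and their log2 fold changes were -0.92 and -0.38 with adjusted p-values of 0.631 and 0.667 (edgeR). Trim63, the muscle ubiquitin ligase MuRF1, had 227, 215 and 369 CPM in MERKO 1 to 3, against 472, 339 and 602 CPM in control 1 to 3 (log2 fold change -0.80, adjusted p = 0.671), with MERKO 3 inside the control range. The number of targets with higher values was 2 under each change of scale or tool, and 8 without MERKO 2, 7 without control 3 and 4 without MERKO 1.

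**Figure D5:**
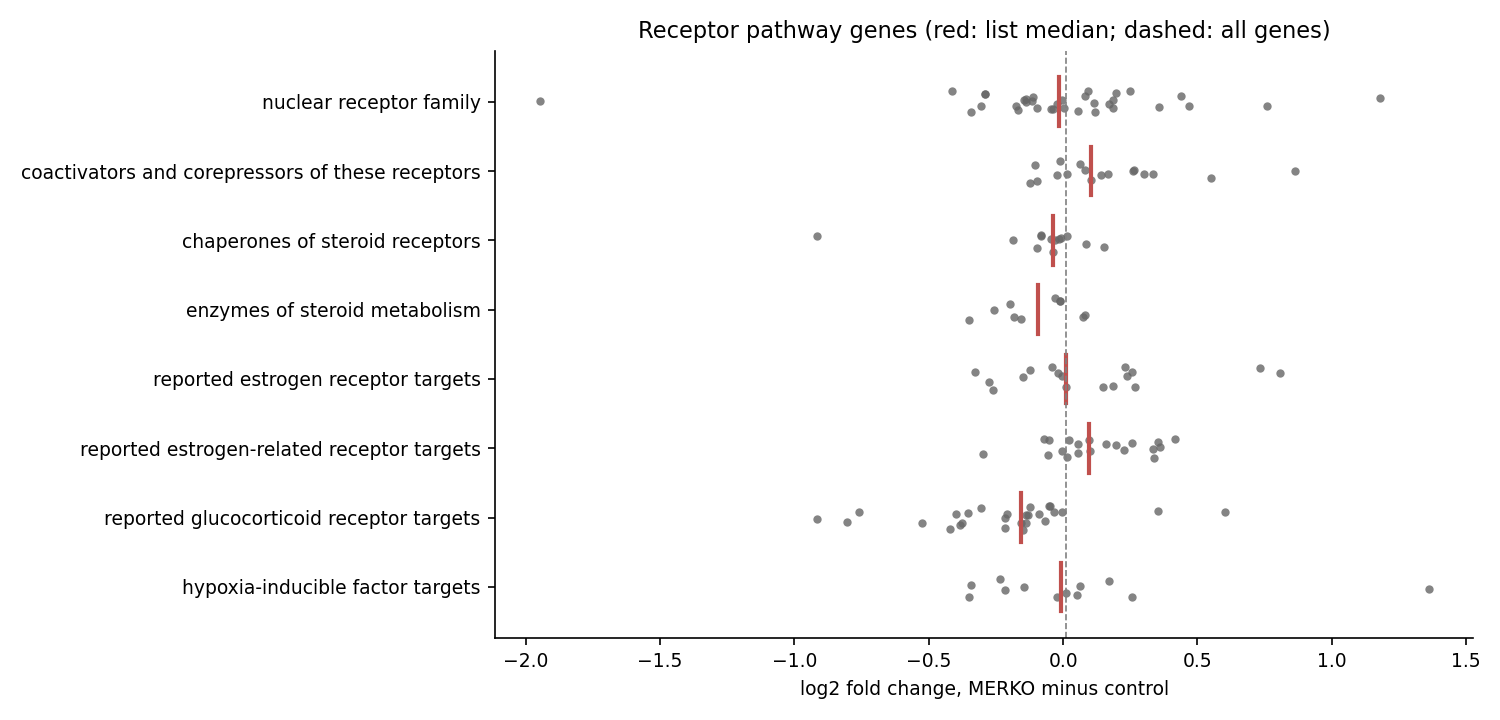
Log2 fold change (MERKO minus control) of each tested gene in 8 lists, with the list median in red and the median of all genes dashed. The glucocorticoid receptor targets have their median at -0.16, and the estrogen receptor targets at 0.01.

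For the 12 tested targets of hypoxia-inducible factor, with which Cited2 competes, 6 values were higher and 6 lower (median -0.01) and 0 had an unadjusted p under 0.05. Egln3, an oxygen-sensing hydroxylase, averaged 7.85 ± 4.64 CPM in MERKO libraries and 3.19 ± 2.58 CPM in controls, the glycolytic enzyme gene Pgk1 at 185 ± 15.4 and 217 ± 8.27 CPM, and the lactate dehydrogenase gene Ldha at 1621 ± 284 and 2056 ± 184 CPM. Their adjusted p-values were 0.706, 0.709 and 0.713 (edgeR), and the number of values higher in MERKO was 3 with library totals alone.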

How the data were processed

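Read counts per gene were analysed in quadriceps RNA of 3 MERKO and 3 control libraries, with groups and numbers from the sample titles. Raw counts were deposited by the authors; per the submitters' processing notes STAR 2.5.2b, HTSeq 0.9.1 and DESeq were used with mm10 and GRCm38. The roles of these tools, the annotation release and the strand setting are not stated, so reads of overlapping or antisense genes cannot be assigned. Trizol RNA and a TruSeq RNA kit were used, per the labels' protocols.

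Symbols matched 48349 identifiers, and locations and exon lengths come from GENCODE M21 (GRCm38). The 8 genes were tested in a fit over all 13628 genes that passed filterByExpr, with TMM factors, genotype as the sole term and the edgeR 4.0.16 quasi-likelihood test (R 4.3.3). P-values were adjusted by Benjamini-Hochberg over all genes at a threshold of 0.05, and fold changes are MERKO minus control. CPM values are given as mean ± SD. Ratios within a library were compared by exact permutation over libraries. The genes and lists were chosen with earlier results of these data known. From each list the 3 genes with the lowest p are named, together with the most abundant nuclear receptors, Esr2 and Pgr, and Fkbp5, which 2 lists share, is given once. Some results that the rule would name are not reported here. Alternatives were DESeq2 1.42.0, limma-voom 3.58.1, other scales and filters, a replicate block and leaving out libraries. The code was tested on simulated data. The counts of libraries of a group differed by more than counting error: their chi-square was 109.6 or more for each degree of freedom. It includes the rRNA gene model, so it cannot show whether libraries came from separate animals. Counts without molecular identifiers are not independent molecules, so Poisson intervals cover counting error only.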

Additional observations from a re-analysis of the deposited data

How the results depend on the processing

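The Esr1 fold change kept its direction in all 16 alternative settings, between -2.08 and -1.84, with adjusted p-values from 8.6e-21 (DESeq2) to 0.242. Leaving out 1 library gave between 0 and 1 of the 8 genes called and between 0 and 11 of all genes. Without MERKO 2 and control 2 together, Esr1 was at -1.98 (adjusted p = 0.242) and 0 of the 8 were called. Without MERKO 1 and control 1 together 7 genes were called over all genes, against 1 with all libraries. The count was 23 with DESeq2, 140 (86 higher and 54 lower) with no filter on low counts, 93 (44 higher and 49 lower) with library totals alone and 51 (31 higher and 20 lower) with the replicate block. Deviations of same-numbered libraries correlated at 0.448, 0.163 and 0.0612 across genes. MERKO 1 and control 1 thus deviated together, the closest of the 9 pairs, but MERKO 2 was closest to control 3 (0.184), and the labels tie the numbers to nothing shared, so the block was not used for the reported values. With the block, Esr1 was at -1.94 (adjusted p = 0.000371, edgeR) and 1 of the 8 was called. Of the 8, 5 had an unadjusted p under 0.05 (Esrra, Esrrb and Esrrg higher, Esr1 and Cited2 lower), against 12.8% of all genes. On the pairs of numbers the log2 ratio differences were 0.475 for Esrrg to Esrra and 0.272 for Nr3c2 to Nr3c1. With every pair complete these equal the unpaired differences by arithmetic, so they are no check.

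Without MERKO 1 the sign turned for Esrra (-0.0339), Esrrb (-0.312), Esrrg (-0.186), Nr3c1 (0.0187) and the log2 ratio of Esrrg to Esrra (-0.0262). The sign of Nr3c1 also turned without control 3 (0.0517), and that of Gper1 with limma-voom (0.0338), without MERKO 3 (0.000505) and without control 1 (0.299). Leaving out 1 library gave -0.0339 to 0.426 for Esrra, -0.312 to 2.90 for Esrrb, -0.186 to 1.81 for Esrrg, -0.732 to 0.299 for Gper1, -0.109 to 0.0517 for Nr3c1 and -0.0262 to 1.03 for the ratio of Esrrg to Esrra. The cause was not tested, beyond the removal of a library itself. The ratio of Nr3c2 to Nr3c1 lay between 0.18 and 0.42 with 1 library left out. An unadjusted p under 0.05 was found for 4 of the 8 with library totals alone (3.13% of all genes). Low counts limit Gper1 and Esrrb most.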

Other observations

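Further receptors and enzymes of steroid metabolism are given as values. Among nuclear receptors other than the 8 genes, the lowest p-values belonged to the thyroid hormone receptor gene Thrb (14.1 ± 2.01 CPM in MERKO libraries and 18.8 ± 1.92 CPM in controls, log2 fold change -0.41, adjusted p = 0.671, edgeR), the liver X receptor gene Nr1h3 (10.6 ± 0.45 and 13.1 ± 1.55 CPM, -0.31, adjusted p = 0.683) and Rxrg (39.6 ± 7.21 and 50.1 ± 4.83 CPM, -0.34, adjusted p = 0.694). The groups did not overlap in 11.8% of the tested nuclear receptors, Thrb and Nr1h3 among them, against 13.3% of all genes.

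Of 18 enzymes of steroid metabolism with counts listed, 10 were tested, with 2 higher and 8 lower (median -0.09) and 0 with an unadjusted p under 0.05. The number higher was 4 without MERKO 2 or MERKO 3, 3 without MERKO 1 or control 3 and 1 without control 2, and the median was -0.05 without control 1. Hsd11b1, which regenerates active glucocorticoid, stood at 7.24, 4.38 and 7.22 CPM in MERKO 1 to 3, against 6.43, 8.68 and 9.30 CPM in control 1 to 3. Hsd17b12 averaged 4.47 ± 0.39 CPM in MERKO libraries and 5.44 ± 0.89 CPM in controls, and Hsd17b10 24.4 ± 2.89 and 27.4 ± 1.06 CPM. The aromatase gene Cyp19a1, which makes estrogen, was below the filter. Of 13 chaperones of steroid receptors 3 had higher and 10 lower values (median -0.04), with 1 higher on library totals alone and 7 without MERKO 2 and control 2. Next to Fkbp5, the lowest p-values belonged to Bag1 (85.0 ± 8.12 and 96.6 ± 7.69 CPM) and Hsp90aa1 (33.4 ± 5.53 and 30.1 ± 1.18 CPM).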
